A study of Mus musculus with 3 samples.

Results

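To see which cells of the mouse larynx could activate naphthalene, the transcripts of 7 enzymes were followed across cell classes in single-cell RNA sequencing of larynx. The genes were Cyp2f2, Cyp2a5, Cyp2b10, Cyp2s1, Fmo2, Por and Ephx1, taken by symbol as 7 of the 33696 features counted in each library, and all 7 were detected in every library. Naphthalene does little harm by itself. A cytochrome P450 of the endoplasmic reticulum oxidizes it to an epoxide, and in mouse airways CYP2F2 is the P450 best known for this step, with CYP2A5 as another naphthalene oxidase. The P450s take their electrons mainly from NADPH through cytochrome P450 reductase, the product of Por. The epoxide then reacts with cell proteins, is conjugated with glutathione, or is hydrolyzed by microsomal epoxide hydrolase, the product of Ephx1. CYP2B10 and CYP2S1 are further P450s of mouse airways, and FMO2 is the flavin monooxygenase best known from lung. In the trachea and bronchi, club cells rich in CYP2F2 are the classic targets of naphthalene.

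All 3 libraries belonged to a single group and came from Lrig1CreERT2/+; ROSA26CAG-LSL-tdTomato/+ mice, whose Lrig1-expressing cells turn on the red reporter tdTomato after tamoxifen. Cells were sorted for tdTomato 24 h after recombination, and each library pooled 10 larynges, 5 from male and 5 from female mice. Cre is driven by the Lrig1 locus, so each sorted cell should have used that locus when tamoxifen was given, and 1 copy of Lrig1 carries the insertion in every mouse. No library of naphthalene-treated mice and no unsorted library was analysed here, so the values describe sorted cells of uninjured larynx, and neither transcript change after injury nor enzyme activity was measured. The library, a pool of mice, was the replicate (n = 3), and p-values measure the spread between these pools.

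Libraries 1, 2 and 3 held 18068, 10816 and 31646 barcodes, of which 13222, 7201 and 24119 cells remained after limits on genes, unique molecular identifiers (UMIs) and mitochondrial share and after doublet removal, at a median of 10490, 14056 and 10236 UMIs per cell. Between 23 and 104 of the kept barcodes were shared by a pair of libraries. Levels are UMIs of a gene per 1000000 UMIs (CPM) summed over the cells of a class in a library, given as the mean ± SD of 3 libraries. The kit counts 3′ ends, so that a transcript of any length gives its UMIs from 1 end and levels of different genes were compared without a length correction. Cells were put into classes by UMIs of marker genes, none of them a member. Classes that rest on a single marker are named by that gene: Tmprss11a+ basal cells (8727, Krt5+ Trp63+ cells with a UMI of a protease of squamous epithelium), Nkx2-1+ basal cells (2077, with a UMI of the transcription factor of the lower airway), basal cells with both (3230) or neither (1654), Scgb3a2-intermediate (7158), Scgb3a2-high (2205) and Scgb1a1-high cells (262). Suprabasal (1346, Krt13 and Krt4 among 4 markers), goblet-like (159), gland-like (1131), ciliated-like (1367) and neuroendocrine-like cells (79) rest on lists of markers, as do the fibroblast-like (3274), satellite-like (2306), endothelial-like (552), leukocyte-like (250) and mural-like cells (119). Another 5066 epithelial cells met no class, 2988 cells passed neither the epithelial list nor any class, and 552 were of mixed lineage.

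Several marker genes that set no class differed between the basal classes. Tmprss11b and Lgals7, of squamous epithelium, were at 84.2 and 319 CPM in Tmprss11a+ basal cells and 17.4 and 33.4 CPM in Nkx2-1+ basal cells, and Aldh1a7 and Scnn1a, of airway epithelium, were at 3.23 and 49.6 against 34.3 and 138 CPM. Scgb3a2-high cells still held basal genes. Their Dapl1 and Krt5 were at 333 and 1053 CPM, against 339 and 1150 CPM in Nkx2-1+ basal cells. Their Col17a1 and Trp63 were lower, at 120 and 364 against 224 and 993 CPM. Scgb1a1-high cells held only 28.7 CPM of Dapl1 and 65.5 CPM of Krt5. Where Scgb3a2-high cells are called secretory below, the word rests on Scgb3a2 and not on a loss of basal genes. Of the 262 Scgb1a1-high cells, 156 also passed the threshold of the gland list. Over all 262, Ltf, a gland marker, averaged 12872 CPM against 37968 CPM in gland-like cells. Goblet-like cells held 23532 ± 12377 CPM of it, and with the gland list taken first only 2 libraries kept enough goblet-like cells (55), at 2166 ± 922 CPM of Cyp2f2 and 708 ± 636 CPM of Cyp2a5. Scgb1a1-high and gland-like cells are therefore set side by side below. Member levels of the former, and member differences from Scgb3a2-high cells, are also given with those 156 cells moved to the gland class. Goblet-like cells over that threshold moved with them. The thinned shares of cells, shares of UMIs, Lrig1, other genes and counts over gene lists are given only with the 156 cells in the Scgb1a1-high class.

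Cyp2f2, Cyp2a5, Cyp2b10 and Cyp2s1 lie together on chromosome 7, in a run of Cyp2 genes. In GRCm39 with the GENCODE annotation, Cyp2f2 (ENSMUSG00000052974) spans chr7:26819322-26833090 on the plus strand with 10 exons in its canonical transcript, Cyp2a5 (ENSMUSG00000005547) chr7:26534730-26542973 (plus, 9 exons), Cyp2b10 (ENSMUSG00000030483) chr7:25597045-25626049 (plus, 9 exons) and Cyp2s1 (ENSMUSG00000040703) chr7:25501895-25516338 (minus, 9 exons). Fmo2 is at chr1:162701873-162726295 (minus, 8 exons), Ephx1 at chr1:180803775-180848537 (minus, 9 exons) and Por at chr5:135698887-135764182 (plus, 16 exons). The Cyp2 run holds 13 protein-coding Cyp2 genes over 1356 kb, and use of it was uneven. In the kept cells Cyp2f2 gave 2838460 UMIs, 93.0% of all UMIs of the run, against 152894 for Cyp2a5, 36379 for Cyp2b10 and 25191 for Cyp2s1. The other 9 genes, Cyp2t4, Cyp2b19, Cyp2a12, Cyp2b13, Cyp2g1, Cyp2a4, Cyp2b9, Cyp2b23 and Cyp2a22, gave 428 UMIs together, from 134 for Cyp2t4, whose start lies 33.8 kb from that of Cyp2f2, to 4 each for Cyp2b23 and Cyp2a22. Reads of close paralogs could be split or dropped in counting. Of 511 windows of 90 bases in the last 600 bases of each canonical transcript, 7 of Cyp2a5 (1.37%) were also found in Cyp2a4 and none of any other member was found in another gene, so a part of the Cyp2a5 reads may have been dropped as shared.

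The windows from 250 bases before to 50 bases after the start site of the canonical transcript are shown for the 4 P450 members because their levels part between cell classes below although they lie in a single run. Capitals mark matches, on either strand, to 4 short motifs: GCGTG (core of the site of the dioxin receptor AHR), TGANNNNGC (a loose form of the core of the antioxidant site of NRF2), CTCAAG (core of an NKX2-1 site) and TGTTTAC (core of a FOXA site). The loose form allows any base after TGA, so a match to it need not be an NRF2 core. Each is written 5′ to 3′ on the strand of the gene, at chr7:26819073-26819372 (Cyp2f2), chr7:26534480-26534779 (Cyp2a5), chr7:25596795-25597094 (Cyp2b10) and chr7:25516289-25516588 (Cyp2s1, minus strand).
Cyp2f2: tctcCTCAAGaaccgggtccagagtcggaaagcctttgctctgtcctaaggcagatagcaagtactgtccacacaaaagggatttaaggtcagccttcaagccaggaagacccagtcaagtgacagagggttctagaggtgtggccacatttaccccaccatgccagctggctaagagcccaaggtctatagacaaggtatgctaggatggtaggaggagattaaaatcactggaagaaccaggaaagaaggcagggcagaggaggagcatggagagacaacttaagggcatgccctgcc
Cyp2a5: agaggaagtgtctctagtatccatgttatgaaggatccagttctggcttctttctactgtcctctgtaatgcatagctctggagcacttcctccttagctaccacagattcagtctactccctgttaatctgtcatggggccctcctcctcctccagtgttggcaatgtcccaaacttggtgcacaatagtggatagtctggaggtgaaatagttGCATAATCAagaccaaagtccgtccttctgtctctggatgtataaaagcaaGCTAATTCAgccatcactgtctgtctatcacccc
Cyp2b10: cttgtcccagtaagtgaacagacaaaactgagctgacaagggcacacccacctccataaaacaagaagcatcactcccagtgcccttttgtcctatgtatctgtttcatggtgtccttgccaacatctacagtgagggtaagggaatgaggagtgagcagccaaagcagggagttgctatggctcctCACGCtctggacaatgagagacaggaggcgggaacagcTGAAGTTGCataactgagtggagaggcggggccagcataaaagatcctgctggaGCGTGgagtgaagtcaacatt
Cyp2s1: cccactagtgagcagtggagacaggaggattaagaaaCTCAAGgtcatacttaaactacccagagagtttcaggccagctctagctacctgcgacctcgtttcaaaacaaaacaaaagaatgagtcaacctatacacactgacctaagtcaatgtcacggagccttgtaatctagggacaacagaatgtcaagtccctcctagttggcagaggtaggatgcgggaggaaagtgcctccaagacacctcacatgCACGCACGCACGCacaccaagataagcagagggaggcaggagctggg
The Cyp2f2 window held CTCAAG at position -246 from the start site and no other match. The Cyp2a5 window held TGANNNNGC on the opposite strand at -35 and 17, Cyp2b10 held it at -25 with GCGTG at -63 and 30, and Cyp2s1 held 3 overlapping GCGTG on the opposite strand from position 4 to 12 with CTCAAG at -213. The Por window, not shown, held GCGTG at -201, -142 and -93 and CTCAAG at 36, the windows of Fmo2 and Ephx1 held none of the 4 motifs, and no member's window held TGTTTAC. Over 21757 protein-coding promoters of the same length, GCGTG was found in 37.0%, TGANNNNGC in 40.4%, CTCAAG in 16.6% and TGTTTAC in 3.15%.

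Cyp2f2 transcripts were abundant in nearly every kind of epithelial cell and scarce in the non-epithelial classes. In Tmprss11a+ basal cells, the largest class, the level was 4528, 4208 and 4552 CPM in libraries 1, 2 and 3. In Nkx2-1+ basal cells it was 6610, 5885 and 7493 CPM, so that the 2 basal classes did not overlap. The level was 8986, 8193 and 9685 CPM in Scgb3a2-high cells, 8426, 6367 and 9856 CPM in Scgb1a1-high cells and 7452, 7903 and 10014 CPM in gland-like cells. These 3 classes overlapped and had the highest means, but with the gland-list cells moved out Scgb1a1-high cells were at 6836 ± 1704 CPM and no longer among them. Scgb3a2-intermediate cells followed at 7554 ± 658 CPM and Nkx2-1+ basal cells at 6663 ± 806 CPM. Suprabasal cells came next at 5121 ± 707, then basal cells with both markers at 5060 ± 831, with neither at 4709 ± 574 and Tmprss11a+ basal cells at 4429 ± 192 CPM. Neighbours among these last 4 classes differed by less than the larger of their SDs. Basal cells with neither marker were shallow, with library medians averaging 5394 UMIs against 14693 in Nkx2-1+ and 17914 in Tmprss11a+ basal cells. A missing marker UMI thus goes with depth as well. Goblet-like (2994 ± 429) and ciliated-like cells (2948 ± 229) were lowest of the 11 epithelial classes found in all libraries. Neuroendocrine-like cells, an epithelial class by their Epcam (1432 CPM), held only 292 and 117 CPM in the 2 libraries that had enough of them, no more than the 298 ± 32 CPM of fibroblast-like cells. Satellite-like, mural-like, endothelial-like and leukocyte-like cells averaged 117 to 185 CPM.

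**Figure D1:**
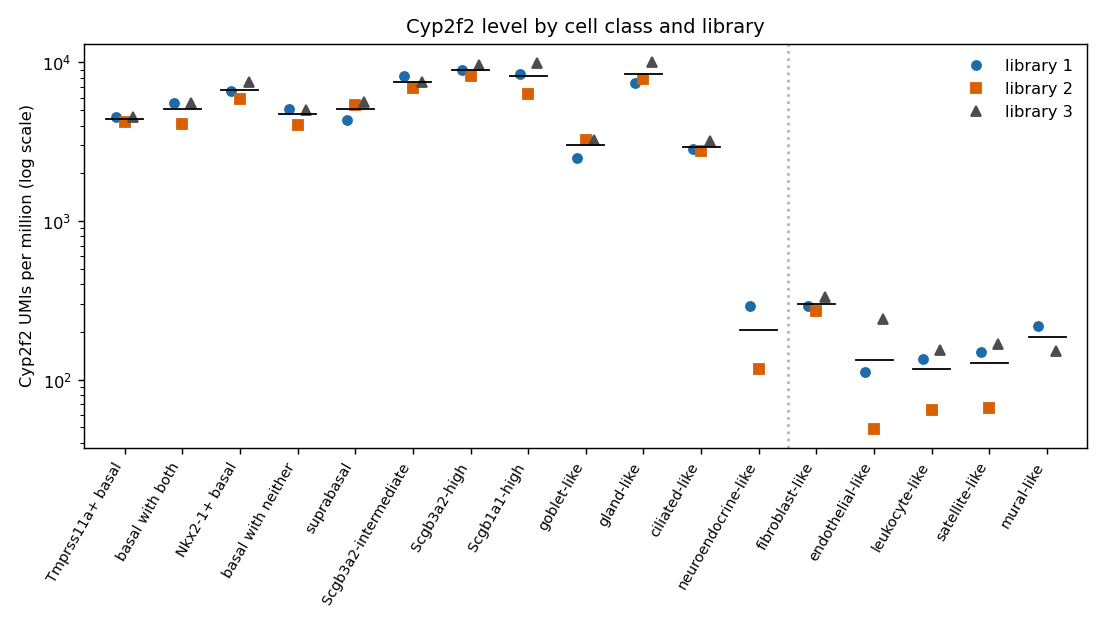
Cyp2f2 level in CPM (log axis) by cell class, with a point for each library and a line at the mean of the libraries. The 11 epithelial classes seen in all libraries sit between 2499 and 10014 CPM, while neuroendocrine-like and non-epithelial classes reach at most 334 CPM.

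Cyp2f2 was a property of most cells of a class rather than of a few rich cells. With each cell thinned to 5000 UMIs and shallower cells left out, which kept 1432 of 1580, 1447 of 1482 and 5275 of 5665 Tmprss11a+ basal cells, the median was 19, 18 and 22 Cyp2f2 UMIs and the middle 50% of cells lay between 10 and 30. At least 5 Cyp2f2 UMIs were found in 94.2 ± 1.63% of these cells (SD, n = 3). The share was 97.5 ± 1.26% in Nkx2-1+ basal, 90.1 ± 5.25% in suprabasal, 99.3 ± 0.576% in Scgb3a2-high, 90.5 ± 1.66% in gland-like and 79.0 ± 3.09% in ciliated-like cells. It was 0.32 ± 0.287% in satellite-like cells, which should lack the enzyme, and 8.75 ± 0.476% in fibroblast-like cells. A single UMI says little here. Without thinning, 99.6 to 99.7% of Tmprss11a+ basal cells had 1 or more Cyp2f2 UMIs, but so did 38.4 to 62.3% of satellite-like cells at a median depth of 5992 to 8489 UMIs, hence the minimum of 5.

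Free RNA from broken cells gives a few UMIs of any abundant gene to every droplet. To see how far such RNA reached, Cyp2f2 was set against Krt15, a keratin of basal cells. Over all kept cells there were 1.83, 1.49 and 1.07 Cyp2f2 UMIs per Krt15 UMI in libraries 1, 2 and 3, and satellite-like cells, at 1.32, 0.932 and 0.690, lay somewhat below this in each library. Fibroblast-like cells were higher, at 3.63, 5.45 and 1.81. Their share of cells with 5 or more UMIs also stood above the 0.251 to 1.70% of leukocyte-like and endothelial-like cells, so the low Cyp2f2 of the fibroblast-like class was not in the same proportion to Krt15 as in the other non-epithelial classes. Whether these transcripts were made in fibroblasts was not tested.

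**Figure D2:**
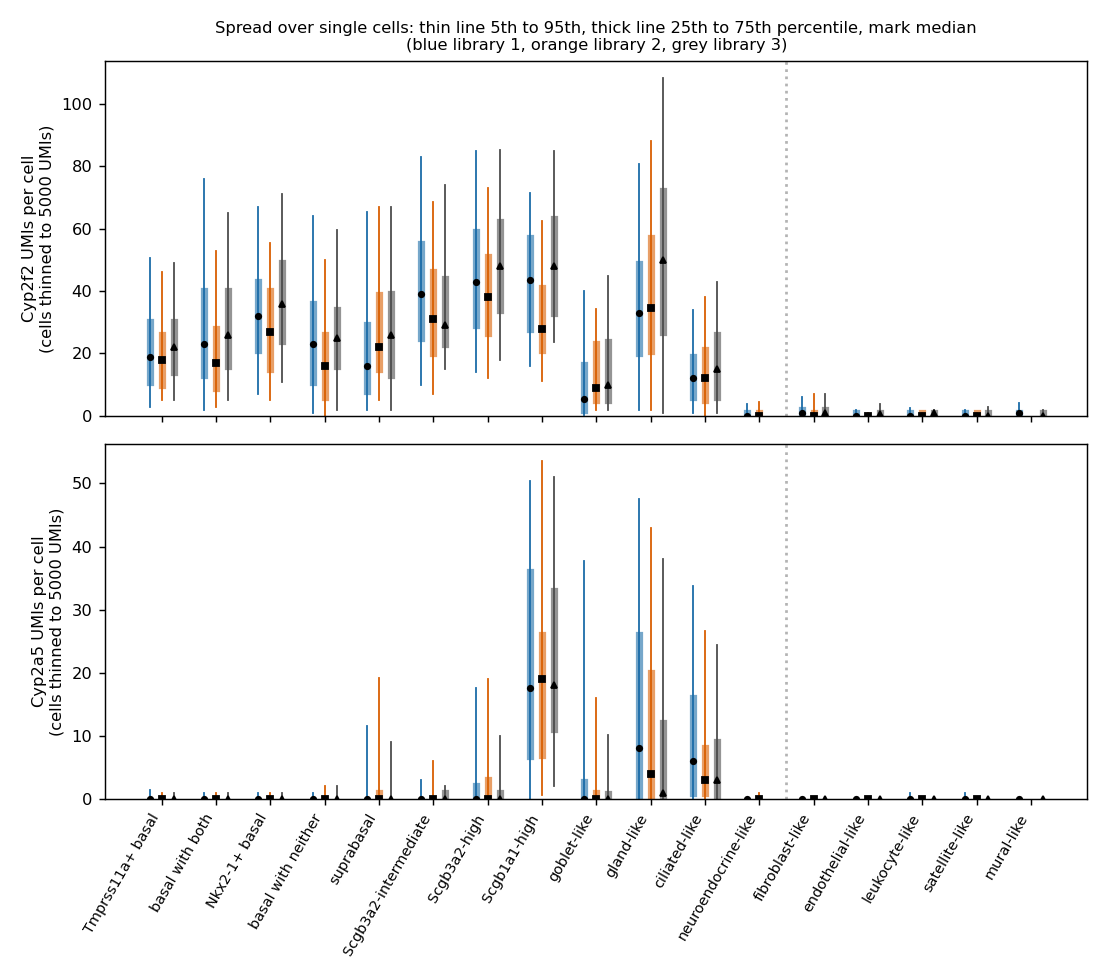
UMIs per cell of Cyp2f2 (upper panel) and Cyp2a5 (lower panel) after thinning to 5000 UMIs, by class and library, drawn as the median with the range from the 25th to the 75th (thick) and from the 5th to the 95th percentile (thin). Cyp2f2 medians are 16 to 50 in epithelial classes other than goblet-like and ciliated-like cells, whose medians are 5.5 to 15, and 0 to 1 in neuroendocrine-like and non-epithelial classes.

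Basal cells held a large part of the Cyp2f2 transcripts. Tmprss11a+ basal cells made up 18.7 ± 6.0% of the cells and 22.9 ± 4.98% of the Cyp2f2 UMIs of a library. Their level lay below the 4577, 4417 and 5639 CPM of all kept cells in libraries 1, 2 and 3. They were deep, however, with library medians averaging 17914 UMIs. Scgb3a2-intermediate cells held 17.8 ± 4.75%, Scgb3a2-high cells 10.9 ± 1.82%, gland-like cells 5.22 ± 1.54% and Scgb1a1-high cells 1.00 ± 0.479%. Epithelial cells of no class held 14.0 ± 6.92%. Cells that passed no list, 8.84 ± 5.78% of the cells, held 3.78 ± 3.21%, more than any non-epithelial class. These shares describe cells sorted for the Lrig1 reporter and not the whole epithelium. They also depend on where the class thresholds lie, since Scgb3a2-intermediate cells form a range between the basal and the Scgb3a2-high classes and not a type of their own.

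Summed counts were compared in 10 pairs of groups, which were either classes or cells with and without an Lrig1 UMI. The test was edgeR's quasi-likelihood test (glmQLFTest, 3 sums against 3, Benjamini-Hochberg adjustment over all genes tested). Several comparisons share the sums of a class, above all those of Nkx2-1+ basal, Tmprss11a+ basal and Scgb3a2-high cells. The sums of a library came from the same pool, so values with the library as a block are given where they change a call. In Nkx2-1+ against Tmprss11a+ basal cells, 4 of 7 members passed the threshold of 0.05, where 21.8% of all genes tested did (with the block 6 members and 37.3% of genes). In Scgb3a2-high against Nkx2-1+ basal cells 2 members passed against a background of 14.6% (with the block 5 members and 26.3%). In Scgb1a1-high against Scgb3a2-high cells 5 passed against 18.4% (with the block 7 and 19.1%), and in gland-like against Scgb3a2-high cells 6 against 29.4% (with the block 6 and 35.9%). In suprabasal against Tmprss11a+ basal cells 2 members passed against 23.7% (with the block 4 and 41.7%). Ciliated-like against Nkx2-1+ basal cells gave 6 members against 72.5%, and Tmprss11a+ basal against fibroblast-like cells 7 against 66.1% (with the block 7 and 69.3%), so these last 2 comparisons separate most genes and not the members in particular. With 7 members, shares of this kind can be read only coarsely, and the size of each difference follows by member.

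For Cyp2f2, the differences between the epithelial classes compared were within 1 log2 unit with TMM factors, edgeR's trimmed-mean scaling, and reached -1.18 in ciliated-like against Nkx2-1+ basal cells without them. Nkx2-1+ basal cells exceeded Tmprss11a+ basal cells by 0.56 ± 0.12 (log2 ± SE, edgeR's quasi-likelihood test, Benjamini-Hochberg adjusted p = 0.0103), a 1.48-fold difference. The difference kept its size without library 1 (0.59, adjusted p = 0.162) and without library 2 (0.60, adjusted p = 0.0540), where it lost the call, and was smaller with doubled class thresholds (0.40, adjusted p = 0.0600). Scgb3a2-high cells exceeded Nkx2-1+ basal cells by 0.52 ± 0.14 (adjusted p = 0.0383 in edgeR), and this call was lost without library 1 (0.50, adjusted p = 0.376) and without library 2 (0.49, adjusted p = 0.161). The same call was lost without doublet removal (0.48, adjusted p = 0.0506), after thinning (0.51, adjusted p = 0.0804) and without TMM factors (0.43, adjusted p = 0.0589). Suprabasal against Tmprss11a+ basal cells gave 0.37 ± 0.15 (adjusted p = 0.116 in edgeR, and 0.38 with adjusted p = 0.0158 with the block). For Scgb1a1-high against Scgb3a2-high cells, the direction depended on the scaling: TMM factors gave 0.42 ± 0.20 (adjusted p = 0.192, and 0.40 with adjusted p = 0.0345 with the block), while library totals alone gave -0.13. Secreted products took up much of the RNA of Scgb1a1-high cells, with Bpifa1 alone at 151266 CPM. The median of all genes lay at -0.55 under library totals in this comparison and at -0.34 in gland-like against Scgb3a2-high cells, where Cyp2f2 gave 0.24 ± 0.20 with TMM factors (adjusted p = 0.390 in edgeR) and -0.08 without. It lay at -0.25 for ciliated-like against Nkx2-1+ basal cells and at -0.17 for suprabasal against Tmprss11a+ basal cells. Ciliated-like cells were below Nkx2-1+ basal cells, by -0.95 ± 0.16 (adjusted p = 0.000217 in edgeR). Against fibroblast-like cells, Tmprss11a+ basal cells were higher by 3.95 ± 0.18 (15.4-fold, adjusted p = 5.65e-07 in edgeR).

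Cyp2a5, which encodes the mouse coumarin 7-hydroxylase, was far more restricted than Cyp2f2. It was at 4240, 3550 and 3967 CPM in Scgb1a1-high cells, 3251, 2711 and 1584 CPM in gland-like cells and 2083, 1406 and 1105 CPM in ciliated-like cells. In Tmprss11a+ basal cells it was at 140, 111 and 70.0 CPM, and in Nkx2-1+ basal cells at 42.4, 29.6 and 59.7 CPM. The 3 high classes did not overlap with these 2 basal classes, and Scgb3a2-high (615 ± 244), goblet-like (777 ± 543) and suprabasal cells (394 ± 112) lay between them. With doubled class thresholds the order of the first 2 turned, to 1051 ± 397 CPM in Scgb3a2-high and 401 ± 476 CPM in goblet-like cells. Non-epithelial classes averaged 7.08 to 19.2 CPM. At least 5 Cyp2a5 UMIs per 5000 were found in 83.0 ± 5.94% of Scgb1a1-high cells, 48.1 ± 9.49% of gland-like cells and 47.2 ± 8.44% of ciliated-like cells, against 2.40 ± 0.847% of Tmprss11a+ basal cells. Gland-like cells, 2.62 ± 0.805% of all cells, held 25.2 ± 6.62% of the Cyp2a5 UMIs, and ciliated-like cells held 16.2 ± 5.85%.

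Every comparison that did not split by Lrig1 called Cyp2a5. It was higher in Scgb3a2-high than in Nkx2-1+ basal cells by 3.88 ± 0.35 (log2 ± SE, adjusted p = 0.000143 in edgeR) and higher again in Scgb1a1-high than in Scgb3a2-high cells by 3.21 ± 0.31 (adjusted p = 6.54e-05). With the 156 cells over the gland threshold moved out, the Cyp2a5 level of the 106 Scgb1a1-high cells left was 2223 ± 759 CPM. This was below the 2627 ± 767 CPM of gland-like cells, which then held the 156 cells and also goblet-like cells over that threshold. The comparison of Scgb1a1-high with Scgb3a2-high cells then called 3 members against a background of 6.86%. These were Cyp2a5 (2.26, adjusted p = 0.00104 in edgeR), Cyp2b10 (1.63, adjusted p = 0.0107) and Ephx1 (-0.62, adjusted p = 0.0375). Of the other 4, Cyp2f2 gave 0.04 (adjusted p = 0.955 in edgeR), Fmo2 -0.19 (adjusted p = 0.690), and Cyp2s1 and Por are given with their genes below. The remaining cells held 6836 ± 1704 CPM of Cyp2f2, 132 ± 59.5 of Cyp2b10, 18.3 ± 6.41 of Cyp2s1, 710 ± 213 of Fmo2, 1141 ± 559 of Por and 123 ± 9.0 of Ephx1. The other 2 comparisons with secretory or ciliated cells gave 2.35 ± 0.37 for gland-like against Scgb3a2-high cells (adjusted p = 0.00149 in edgeR) and 5.32 ± 0.31 for ciliated-like against Nkx2-1+ basal cells (adjusted p = 4.44e-08). Within the squamous classes, suprabasal cells exceeded Tmprss11a+ basal cells by 2.02 ± 0.29 (adjusted p = 0.00319 in edgeR). Nkx2-1+ basal cells stood at -1.28 ± 0.29 from Tmprss11a+ basal cells (adjusted p = 0.0133 in edgeR), a call lost without library 1 (-1.01, adjusted p = 0.182) or library 2 (-1.07, adjusted p = 0.0879). Cyp2a5 and Cyp2f2 thus went opposite ways between the 2 basal classes.

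**Figure D3:**
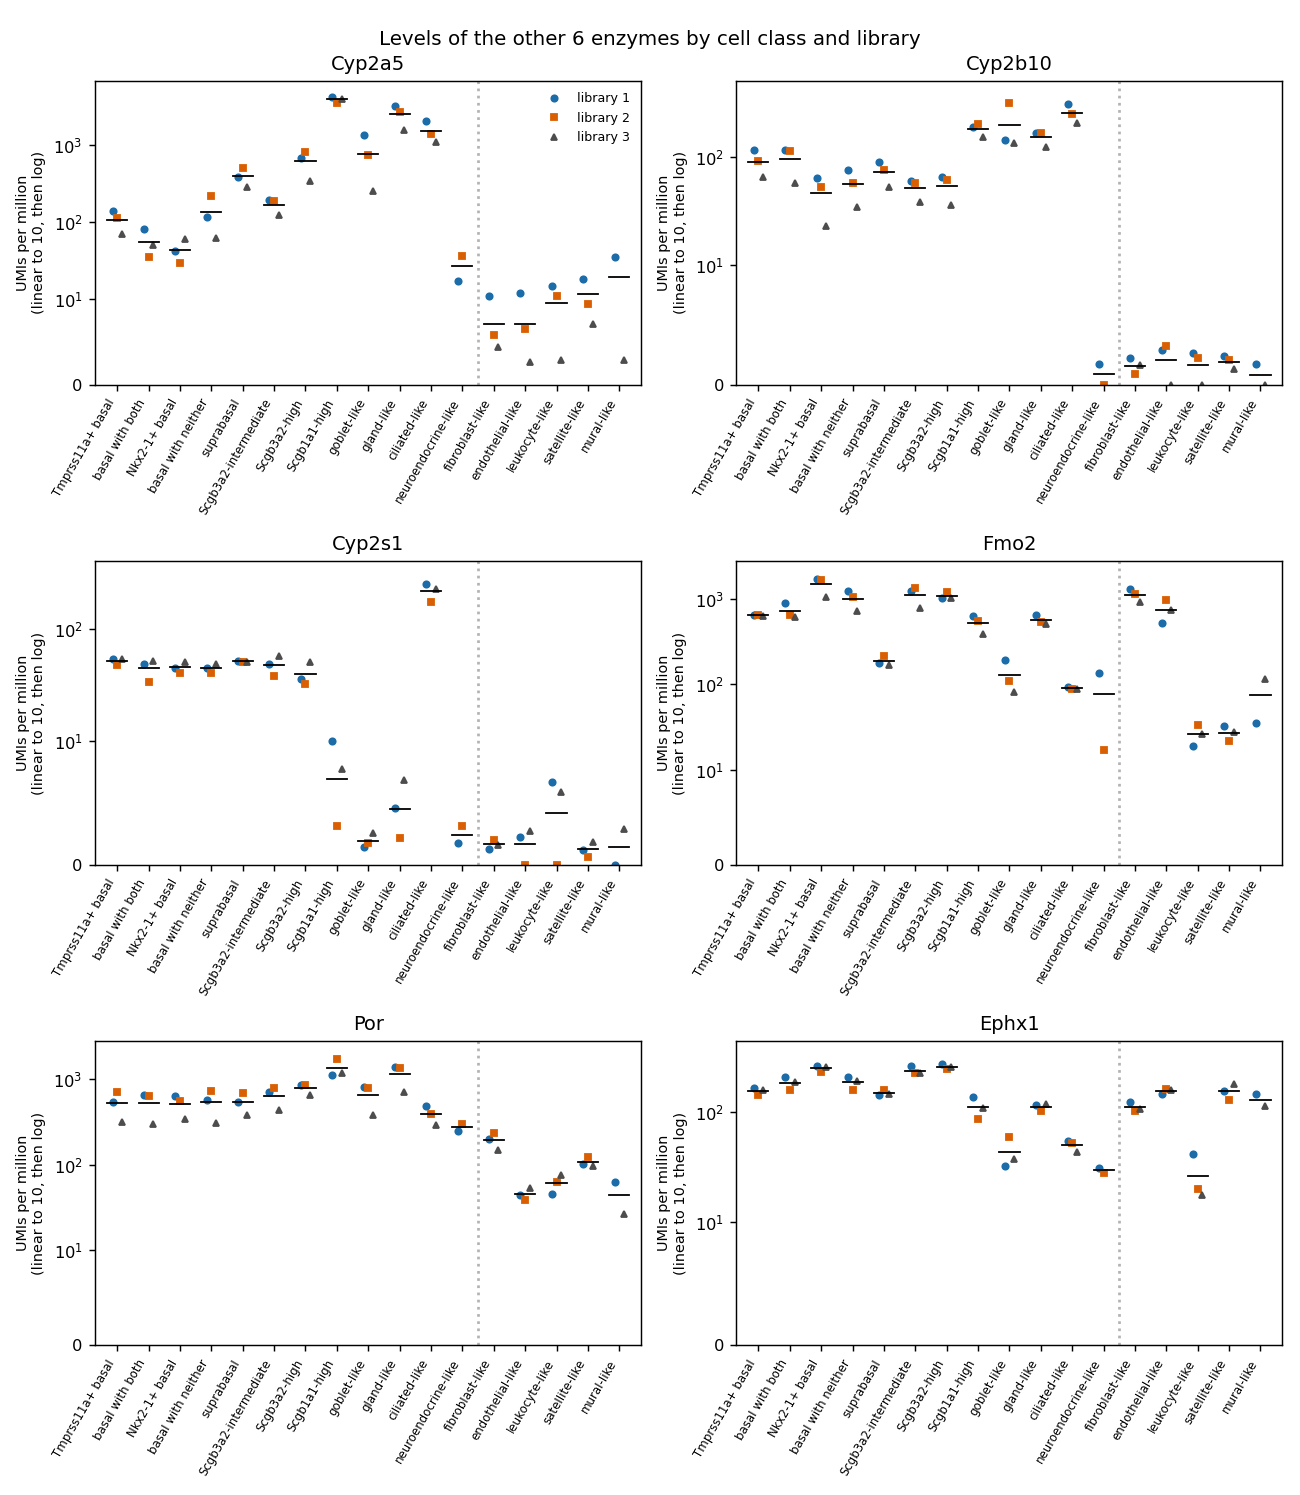
Levels of the other 6 members in CPM (symmetric log axis) by cell class, with a point for each library. Cyp2a5 is at 3550 to 4240 CPM in Scgb1a1-high cells, above gland-like cells only while the 156 gland-list cells stay in the class. Por is above gland-like cells on average only then, and the ranges overlap (1127 to 1734 against 704 to 1385 CPM). Cyp2s1 is highest in ciliated-like cells at 176 to 255 CPM, and Fmo2 is also high in fibroblast-like cells.

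The few basal cells with much Cyp2a5 also had more Cyp2f2. Among Tmprss11a+ basal cells thinned to 5000 UMIs, those with 5 or more Cyp2a5 UMIs (39, 44 and 76 cells) averaged 51.9, 45.7 and 56.2 Cyp2f2 UMIs in libraries 1, 2 and 3, while cells without a Cyp2a5 UMI averaged 20.5, 18.5 and 22.1. Por, which serves both P450s, averaged 5.23, 5.18 and 3.58 against 2.61, 3.58 and 1.51 UMIs. The Cyp2a5-rich cells had more UMIs before thinning, a median of 30060, 27831 and 21233 against 17962, 20507 and 16623, and the part of depth in this was not tested. Suprabasal cells showed the same order at closer depths, with 61.3, 55.5 and 61.8 against 15.5, 22.1 and 23.0 Cyp2f2 UMIs at median depths of 25797, 27478 and 25088 against 21873, 26531 and 24109. In ciliated-like cells the values were 18.1, 21.5 and 26.4 against 7.56, 6.94 and 7.94. Gland-like cells, at 40.1, 46.6 and 57.1 against 30.3, 31.8 and 43.7, and Scgb3a2-intermediate cells, at 57.8, 36.9 and 54.3 against 40.9, 32.9 and 37.1, had the same order in each library. In Scgb3a2-high cells it held clearly only in library 3, with 43.9, 40.4 and 59.3 Cyp2f2 UMIs in Cyp2a5-rich cells against 46.0, 39.7 and 46.6, although their Por differed in each, at 7.63, 8.17 and 6.23 against 3.5, 3.19 and 2.68 UMIs.

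Cyp2b10, a P450 induced through the receptor CAR in liver, and Cyp2s1, a P450 of epithelia exposed to the outside, were both highest on average in ciliated-like cells. Cyp2b10 was at 310, 250 and 206 CPM there, at 193, 203 and 155 CPM in Scgb1a1-high cells and at 116, 91.4 and 65.5 CPM in Tmprss11a+ basal cells. It was lower in library 3 than in the other 2 in most epithelial classes. Cyp2s1 was at 255, 176 and 231 CPM in ciliated-like cells and at 54.5, 47.7 and 54.7 CPM in Tmprss11a+ basal cells, with all other basal, suprabasal and Scgb3a2 classes averaging 39.5 to 51.5 CPM. Cyp2s1 was at only 9.95, 3.14 and 7.77 CPM in Scgb1a1-high cells and 4.62, 2.13 and 6.86 CPM in gland-like cells. Gland-like cells, rich in Cyp2a5 and Por, were thus nearly without it, and the Scgb1a1-high cells left once the gland-list cells were moved out held 18.3 ± 6.41 CPM. In edgeR's quasi-likelihood test, Cyp2s1 was lower in Scgb1a1-high than in Scgb3a2-high cells by -1.85 ± 0.31 (adjusted p = 0.00207) and in gland-like than in Scgb3a2-high cells by -2.67 ± 0.28 (adjusted p = 0.000161), and higher in ciliated-like than in Nkx2-1+ basal cells by 2.49 ± 0.15 (adjusted p = 6.59e-08). The first of these was not called with the 156 gland-list cells moved out (-0.58, adjusted p = 0.401). Cyp2b10 was higher in the same 3 comparisons, by 2.31 ± 0.25, 1.83 ± 0.24 and 2.72 ± 0.32 (adjusted p = 0.000142, 0.000575 and 1.74e-05 in edgeR).

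Between the basal classes, Cyp2b10 gave -1.03 ± 0.37 in Nkx2-1+ against Tmprss11a+ cells (adjusted p = 0.0800 in edgeR) and passed with the block (-1.11, adjusted p = 1.87e-05) and without library 3 (-0.83, adjusted p = 0.00429). Cyp2s1 gave -0.22 ± 0.09 (adjusted p = 0.143, and -0.23 with adjusted p = 0.0212 with the block). In Scgb3a2-high against Nkx2-1+ basal cells, Cyp2b10 gave 0.35 ± 0.38 (adjusted p = 0.623 in edgeR) and 0.40 with the block (adjusted p = 0.0193). Both genes were nearly missing outside the epithelium, with Cyp2b10 at 0.847 to 2.05 and Cyp2s1 at 1.24 to 4.19 CPM on average over non-epithelial classes.

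Por, whose product passes electrons to P450s, was expressed in every epithelial class. It was at 1127, 1734 and 1195 CPM in Scgb1a1-high cells and at 1385, 1338 and 704 CPM in gland-like cells, the 2 highest means. With the gland-list cells of the Scgb1a1-high and goblet-like classes moved to the gland class, Scgb1a1-high and gland-like cells were level, at 1141 ± 559 and 1143 ± 339 CPM. In Tmprss11a+ basal cells it was at 537, 705 and 316 CPM, in Scgb3a2-high cells at 865, 864 and 652 CPM and in ciliated-like cells at 491, 390 and 290 CPM. Library 3 was the lowest in each of these but Scgb1a1-high cells. Por was higher in Scgb1a1-high than in Scgb3a2-high cells by 1.33 ± 0.24 (adjusted p = 0.00266 in edgeR), but gave 0.92 with adjusted p = 0.0695 with the gland-list cells moved out. In gland-like against Scgb3a2-high cells it gave 0.85 ± 0.26 (adjusted p = 0.0385 in edgeR), and the call was lost without library 1 (0.77, adjusted p = 0.170) and library 2 (0.78, adjusted p = 0.203), with doubled class thresholds (0.57, adjusted p = 0.146), without doublet removal (0.81, adjusted p = 0.0580) and without TMM factors (0.53, adjusted p = 0.0947). In Scgb3a2-high against Nkx2-1+ basal cells it gave 0.72 ± 0.24 (adjusted p = 0.0797 in edgeR) and 0.76 with the block (adjusted p = 8.75e-05). Between the 2 basal classes it gave -0.04 ± 0.32 and between ciliated-like and Nkx2-1+ basal cells -0.17 ± 0.24, neither of which passed, and in suprabasal against Tmprss11a+ basal cells it gave 0.19 ± 0.32 (adjusted p = 0.706 in edgeR, and 0.26 with adjusted p = 0.0274 with the block). Fibroblast-like cells held 194 ± 44.3 CPM, and Tmprss11a+ basal cells were higher by 1.5 ± 0.31 on the log2 scale (adjusted p = 0.00278 in edgeR).

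Fmo2 reached in fibroblast-like cells a level like that of Scgb3a2-high cells (1081 ± 95.4 CPM). It was at 1731, 1690 and 1053 CPM in Nkx2-1+ basal cells, 644, 650 and 630 CPM in Tmprss11a+ basal cells and 1297, 1133 and 915 CPM in fibroblast-like cells. Suprabasal cells held only 177, 216 and 168 CPM and ciliated-like cells 93.8, 89.2 and 88.5 CPM, and endothelial-like cells reached 750 ± 231 CPM. In edgeR's quasi-likelihood test Fmo2 was higher in Nkx2-1+ than in Tmprss11a+ basal cells by 1.20 ± 0.20 (adjusted p = 0.00295), a call lost without library 1 (1.09, adjusted p = 0.0832), and lower in suprabasal than in Tmprss11a+ basal cells by -1.63 ± 0.12 (adjusted p = 0.000259). It was the only member higher in fibroblast-like than in Tmprss11a+ basal cells, by 0.74 on the log2 scale (the difference of Tmprss11a+ basal from fibroblast-like cells was -0.74 ± 0.16, adjusted p = 0.00416 in edgeR, and -0.60 with adjusted p = 0.0753 without library 1). Ciliated-like cells stood -3.82 ± 0.21 from Nkx2-1+ basal cells (adjusted p = 3.03e-08 in edgeR). In gland-like against Scgb3a2-high cells Fmo2 gave -0.60 ± 0.15 (adjusted p = 0.0131 in edgeR, and -0.49 with adjusted p = 0.134 without library 2). In Scgb1a1-high against Scgb3a2-high cells it gave -0.48 ± 0.20 (adjusted p = 0.134 in edgeR, and -0.51 with adjusted p = 0.0114 with the block), and in Scgb3a2-high against Nkx2-1+ basal cells -0.38 ± 0.20 (adjusted p = 0.257 in edgeR, and -0.34 with adjusted p = 0.0331 with the block).

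Ephx1 was present in epithelial and stromal classes alike. It was at 261, 228 and 256 CPM in Nkx2-1+ basal, 166, 143 and 158 CPM in Tmprss11a+ basal and 272, 242 and 257 CPM in Scgb3a2-high cells. Classes rich in Cyp2a5 had less of it, with 135, 86.4 and 108 CPM in Scgb1a1-high, 115, 102 and 118 CPM in gland-like and 54.4, 52.5 and 43.7 CPM in ciliated-like cells. Satellite-like and endothelial-like cells, with almost no P450 of the list, still held 155 ± 26.3 and 154 ± 8.79 CPM. In edgeR's quasi-likelihood test it was higher in Nkx2-1+ than in Tmprss11a+ basal cells by 0.65 ± 0.09 (adjusted p = 0.00122), lower in gland-like than in Scgb3a2-high cells by -0.87 ± 0.10 (adjusted p = 0.000297) and lower in ciliated-like than in Nkx2-1+ basal cells by -2.08 ± 0.12 (adjusted p = 4.62e-08). For Scgb1a1-high against Scgb3a2-high cells it gave -0.66 ± 0.15 (adjusted p = 0.00991 in edgeR), -0.63 with adjusted p = 0.0578 without library 3 and -0.44 with adjusted p = 0.155 after thinning.

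**Figure D4:**
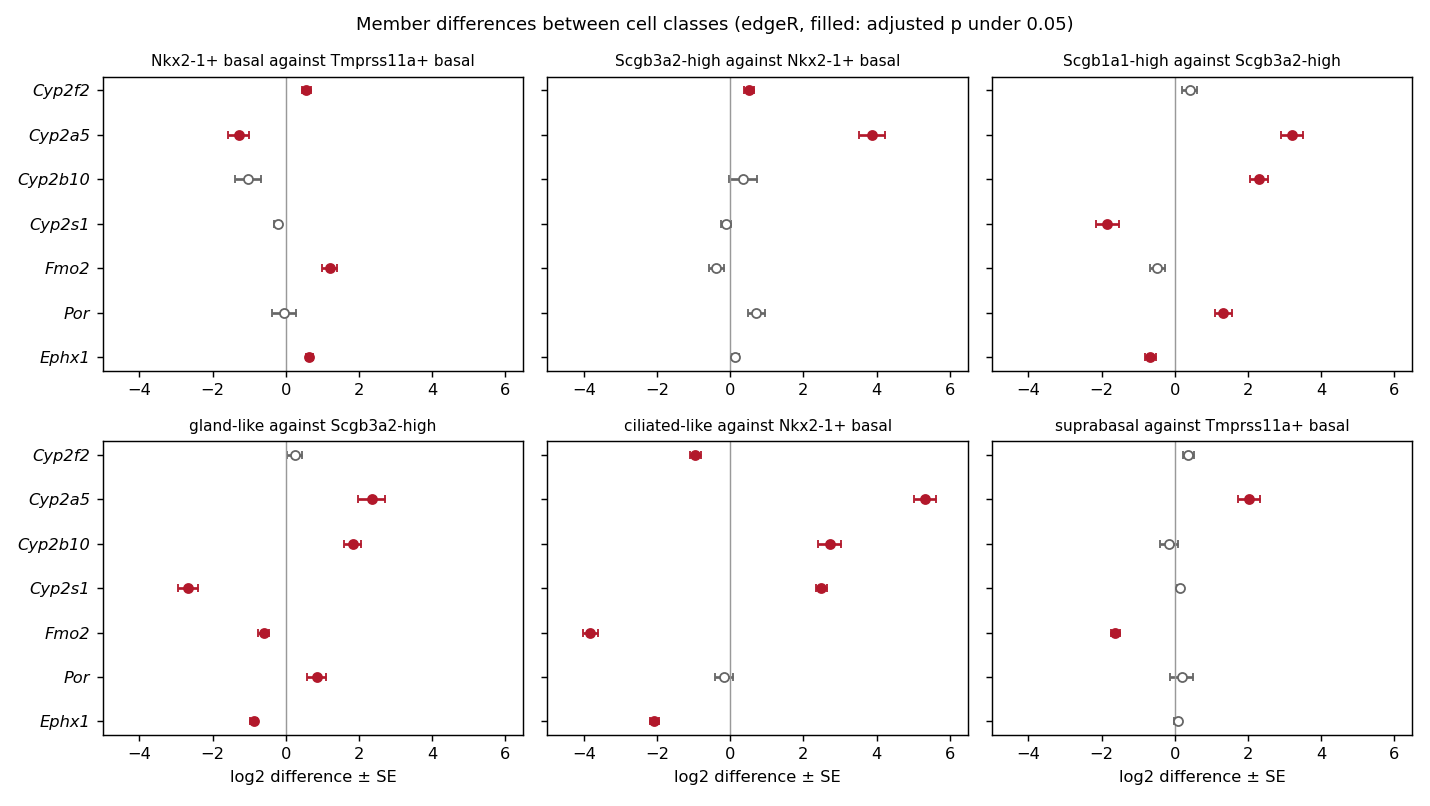
Log2 differences of the 7 members in 6 comparisons between epithelial classes, with bars of 1 SE from edgeR's quasi-likelihood fit and filled points where the adjusted p was under 0.05. Cyp2a5 shows the widest range, from -1.28 to 5.32, and Cyp2f2 lies between -0.95 and 0.56.

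Por and Ephx1 were mostly read from few UMIs a cell at equal depth. After thinning to 5000 UMIs, 1 or more Por UMIs were found in 80.4 ± 8.54% of Tmprss11a+ basal, 76.3 ± 5.37% of Nkx2-1+ basal, 96.9 ± 0.371% of Scgb1a1-high and 75.6 ± 1.99% of ciliated-like cells, but also in 55.4 ± 6.87% of fibroblast-like and 37.0 ± 1.24% of satellite-like cells. An Ephx1 UMI was found in 51.1 ± 3.96% of Tmprss11a+ basal and 46.1 ± 4.43% of satellite-like cells. A single UMI of either thus says little of whether a cell with Cyp2f2 also expressed it. The 2 main P450s could be set together at the minimum of 5 UMIs each, which 83.0 ± 5.94% of Scgb1a1-high, 48.1 ± 9.49% of gland-like, 45.4 ± 7.89% of ciliated-like and 2.40 ± 0.847% of Tmprss11a+ basal cells met. In all but the ciliated-like class these were the shares of cells with 5 or more Cyp2a5 UMIs alone.

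Among the epithelial classes, Lrig1, whose locus drove the reporter, was highest in Tmprss11a+ basal cells. It was at 99.7 ± 5.06 CPM in Tmprss11a+ basal, 80.3 ± 11.1 in Nkx2-1+ basal, 70.5 ± 2.57 in Scgb3a2-high, 54.4 ± 11 in suprabasal, 51.3 ± 4.22 in gland-like and 41.7 ± 19.5 CPM in Scgb1a1-high cells. Satellite-like cells, with almost no Cyp2f2, held 91.6 ± 6.47 CPM of Lrig1. Cells with 5 or more Cyp2f2 UMIs made up 64.5, 75.8 and 85.2% of all cells with at least 5000 UMIs in libraries 1, 2 and 3. Of them, 31.0, 34.6 and 33.9% had an Lrig1 UMI at this depth, against 16.7, 28.8 and 21.4% of the other cells, which include most non-epithelial cells. Cells with 5 or more Fmo2, Por or Ephx1 UMIs also had Lrig1 more often than the rest in each library, for Ephx1 over only 105, 38 and 164 cells. For Cyp2a5 the order was the opposite, at 22.7, 29.2 and 28.7% against 26.2, 33.4 and 32.2%. Cyp2b10-rich cells, only 60 and 23 in libraries 1 and 2, were lower there as well. These values pool all classes. Of the Cyp2a5-rich cells, 19.9 ± 4.86% were gland-like and 21.6 ± 5.34% ciliated-like, with Lrig1 at 51.3 and 56.6 CPM. Within Tmprss11a+ basal and gland-like cells the Cyp2a5 order was the reverse in each library, while Scgb3a2-high and ciliated-like cells kept it. The part of the class mix was not tested.

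Within Tmprss11a+ basal cells at equal depth, Lrig1 was detected more often in cells with more Cyp2f2. An Lrig1 UMI was found in 18.6, 28.9 and 25.5% of cells with 0 to 9 Cyp2f2 UMIs, in 32.2, 37.6 and 38.9% of cells with 10 to 19, in 40.5, 39.9 and 39.5% with 20 to 39 and in 47.7, 42.9 and 43.1% with 40 or more. The share thus rose from bin to bin in all 3 libraries, over 126 to 2515 cells a bin. The 95% Wilson intervals of the lowest and the highest bin were 14.5 to 23.4% and 40.5 to 55.1% in library 1, 24.2 to 34.1% and 34.6 to 51.6% in library 2, and 22.4 to 28.9% and 39.1 to 47.2% in library 3. Suprabasal cells went from 16.5, 15 and 12% in the lowest bin to 34.0, 32.3 and 28.0% in the highest, with only 20 cells in the lowest bin of library 2. Nkx2-1+ basal cells did so in library 3 (8.70 to 40.7%) and less in library 2 (17.9 to 30.9%), and in library 1 the share was 27.0% and 28.2%. Their lowest bin held only 37, 28 and 46 cells in libraries 1, 2 and 3. In library 2 the intervals of the lowest and the highest bin overlapped, at 7.88 to 35.6% and 20.3 to 44.0%. Scgb3a2-high cells had too few cells with 0 to 9 Cyp2f2 UMIs, under 20 a library, so a rise from that bin could not be looked for. Over the other bins they had no order, with 21.1, 37.5 and 29.7% at 10 to 19 Cyp2f2 UMIs (38, 24 and 64 cells) and 27.8, 32.4 and 29.3% at 40 or more. Scgb3a2-intermediate cells went from 14.6 and 18.5% in the lowest bin to 34.9 and 32.9% in the highest in libraries 1 and 3, over 41 and 65 cells in the lowest, but were at 28.9 and 28.7% in library 2.

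**Figure D5:**
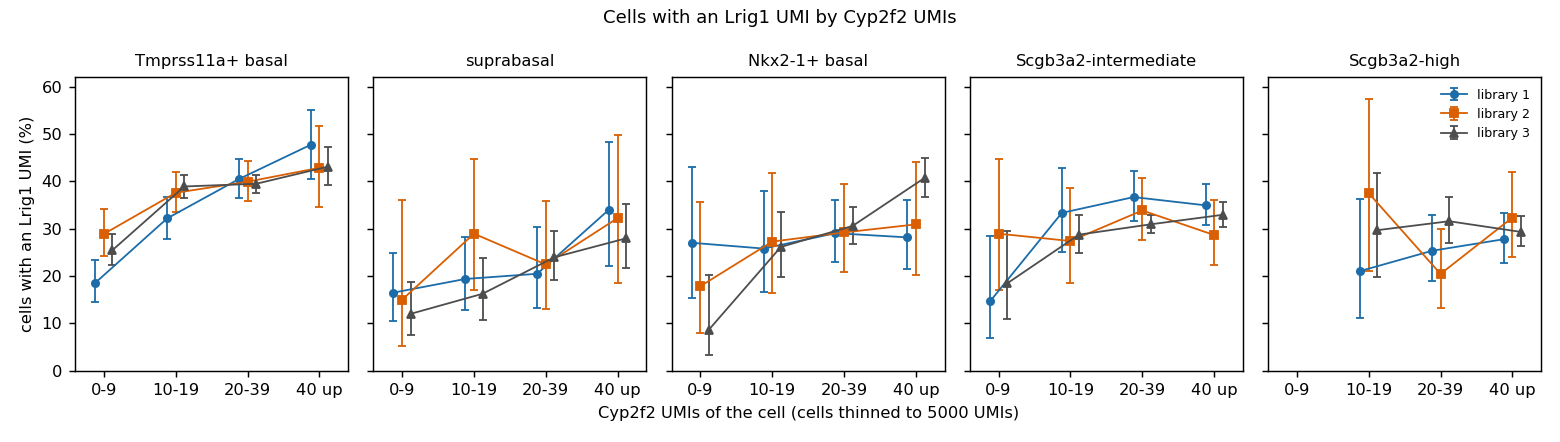
Share of cells with an Lrig1 UMI in percent, by Cyp2f2 UMIs per cell after thinning to 5000 UMIs, for each class and library, with 95% Wilson intervals that cover counting error only. In Tmprss11a+ basal cells the share goes from 18.6 to 28.9% in the lowest bin to 42.9 to 47.7% in the highest. Scgb3a2-high cells, which lack the lowest bin, show no order over the others. Scgb3a2-intermediate cells show a rise in libraries 1 and 3 but not in library 2.

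Summed over cells, the enzymes of Lrig1+ cells (at least 1 Lrig1 UMI) were compared with those of Lrig1- cells of the same class. In Tmprss11a+ basal cells Cyp2f2 was at 5064, 4473 and 4801 CPM in Lrig1+ and 3047, 3277 and 3865 CPM in Lrig1- cells. Cyp2a5 was at 181, 135 and 79.0 against 28.3, 27.7 and 44.9 CPM, and Fmo2 at 694, 688 and 675 against 505, 517 and 506 CPM. All 3 genes were higher in the Lrig1+ cells of each library. edgeR's quasi-likelihood test without the block called 0 of 7 members and 0% of 14936 genes, with 1152 genes at an unadjusted p under 0.05, while DESeq2 called 194 genes and 3 members. Without library 3 the same test called Cyp2a5 (2.47, adjusted p = 0.0342). With the block 3 members passed against a background of 8.41%: Cyp2f2 at 0.48 ± 0.08 (adjusted p = 0.00499), Cyp2a5 at 1.74 ± 0.26 (adjusted p = 0.00381) and Fmo2 at 0.42 ± 0.05 (adjusted p = 0.00117). Lrig1+ cells were deeper, with 19230, 21815 and 17785 UMIs per cell against 13448, 17031 and 12476. When cells were first thinned to 5000 UMIs and split by the Lrig1 UMIs left, the blocked fit still called the 3 genes at smaller sizes, 0.22 ± 0.04 for Cyp2f2 (adjusted p = 0.000889), 0.35 ± 0.06 for Cyp2a5 (adjusted p = 0.00123) and 0.24 ± 0.03 for Fmo2 (adjusted p = 9.69e-05), against a background of 6.43%. Thinned and without the block, edgeR called 0 members and 0 of 12336 genes, with 420 at an unadjusted p under 0.05. Thinning also changed the groups, in library 1 from 1041 Lrig1+ and 539 Lrig1- cells to 493 and 939. Many Lrig1+ cells thus counted as Lrig1- after it, and the smaller sizes cannot be read as what is left once depth is equal. The part of depth and of the changed groups was not tested.

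In Nkx2-1+ basal cells the difference in Cyp2f2 was slight, at 6926, 6097 and 7727 CPM in Lrig1+ against 6133, 5489 and 7056 CPM in Lrig1- cells. edgeR called 0 members and 0% of 11890 genes without the block (475 at an unadjusted p under 0.05, and 8 genes but no member in DESeq2). With the block it called Cyp2f2 alone, at 0.15 ± 0.03 (adjusted p = 0.0105, background 1.49%), and no member after thinning (0.11 ± 0.07, adjusted p = 0.817). In Scgb3a2-high and Scgb1a1-high cells combined, Cyp2f2 was at 9071, 8253 and 9689 CPM in Lrig1+ and 8684, 7424 and 9699 CPM in Lrig1- cells, so that libraries overlapped. No member and 0% of 12518 genes passed there in edgeR (670 at an unadjusted p under 0.05, 3 genes in DESeq2), and no member passed with the block, where 0.358% of genes did.

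Other genes that handle naphthalene metabolites were read from 6 lists. In Scgb3a2-high against Nkx2-1+ basal cells, 1114 genes rose and 836 fell of all 13334 tested (14.6%), and in Scgb1a1-high against Scgb3a2-high cells 1216 rose and 937 fell of 11700 (18.4%). Without TMM factors these became 755 and 1180, and 501 and 5296, so the direction of calls depended on the scaling. Of 27 genes of glutathione conjugation, 26 were tested in Scgb3a2-high against Nkx2-1+ basal cells and 10 rose and 1 fell (edgeR, median 0.47, where all genes had -0.0025), and of 22 genes of diol and quinone handling, 20 were tested and 10 rose (median 0.56). In Scgb1a1-high against Scgb3a2-high cells 10 of 24 glutathione genes rose and 3 fell, and 9 of 21 diol and quinone genes rose and 3 fell. These list counts come from the fit with TMM factors and with the gland-list cells in the Scgb1a1-high class. With those cells moved out 789 of all genes passed (6.86%). The lists were counted neither there nor without TMM factors. Gstm1, a glutathione transferase, was at 1819 ± 258 CPM in Scgb3a2-high and 960 CPM in Tmprss11a+ basal cells on average. Gsto1, of the omega class, was highest in suprabasal cells (4689 ± 678 CPM). Cbr2, a carbonyl reductase of lung, was at 7829 ± 1063 CPM in Scgb1a1-high and 2992 CPM in Tmprss11a+ basal cells, and Sult1d1, a sulfotransferase, at 1106 ± 166 and 20.8 CPM.

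Between the 2 basal classes, 1749 genes rose and 1591 fell of all 15305 tested in Nkx2-1+ against Tmprss11a+ basal cells (21.8%). Of 27 further P450s of families 1 to 4, 13 were tested and 7 rose, with none lower (median 0.46, and 0.0034 over all genes). Cyp4b1, a P450 of lung, was 3.28 higher on the log2 scale there and reached 692 ± 42.9 CPM in Scgb1a1-high cells, while Cyp4a12b gave -0.86 and did not pass. Of the 6 P450 partners, Por itself did not differ between the basal classes and Cyb5a, the cytochrome that hands some P450s an electron, was the 1 that rose (0.57). Among epoxide hydrolases 2 of 3 tested rose, Ephx1 among them, and Ephx4 (-0.31) did not pass. Glutathione genes split, with 6 higher and 7 lower of 27, as did diol and quinone genes, with 4 and 6 of 19. Of 11 transcription factors tested from a list of 15 tied to such enzymes, 3 rose. They included Nkx2-1 itself, whose UMIs set the 2 classes, and Cebpb (0.67), while Nfe2l2, which encodes NRF2, gave 0.04. In the 3 Lrig1 comparisons 0% of all genes passed without the block, so no gene of any list could, and this says nothing of the lists. List counts with the block are not given.

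Genes most like each member were ranked across 49 sums of 17 classes, with the marker genes that set the classes left out of the ranking. Among the genes ranked, those whose log2(CPM + 1) followed Cyp2f2 most closely were Gsta3 (Pearson r = 0.96), Gsta4 (0.96), Cbr2 (0.96), Gm15883 (0.96) and Prdx6 (0.95). They include 2 glutathione transferases and a peroxiredoxin. Sums of a library share their pool and classes differ in depth, so these values are a description. Closest to Cyp2a5 were Alas1 (0.96), which starts the synthesis of heme, the cofactor of P450s, and Ttc36 (0.95), and closest to Por were Rab17 (0.92) and Ces1d (0.92). Cyp2b10 was followed by Wfdc2 (0.93) and Slc16a11 (0.92), Cyp2s1 by Slc25a17 (0.92) and Gm10415 (0.91), Fmo2 by Gm36569 (0.84) and Abi3bp (0.83), and Ephx1 by Olfml2a (0.90) and Smad6 (0.88). Among the members, Cyp2f2 went most closely with Cyp2b10 (0.88) and Por (0.88) and least with Ephx1 (0.43). The sums include non-epithelial classes, where Cyp2f2 and Cyp2b10 were both low. Among epithelial classes Cyp2b10 did not follow Cyp2f2 throughout. Ciliated-like cells held 256 CPM of Cyp2b10 and 2948 of Cyp2f2, Scgb3a2-high cells 54.4 and 8954, and gland-like cells 154 and 8456.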

How the data were processed

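The 3 libraries were made by the authors with the 10x GEM-X Single Cell 3′ v4 kit, and reads were aligned to GRCm39 with Cell Ranger 8.0.1 as the submitters' processing notes give it. The deposited values are raw UMI counts per gene and barcode, with neither normalization nor the cell limits applied. A barcode was kept if it held 500 to 8000 genes, 1000 to 40000 UMIs and no more than 8% of UMIs from mitochondrial genes. Doublets were then removed by resemblance to simulated doublets, at 0.4% per 1000 barcodes of a library (1030, 326 and 3495 barcodes). Kept cells held 156540861, 109813746 and 290289025 UMIs. Classes were set by marker UMIs per 10000 UMIs of the cell: Scgb1a1 of at least 32, Scgb3a2 of at least 16 (intermediate from 2), 64 for the gland list and 32 for the basal, suprabasal, goblet and ciliated lists. A class needed 20 cells in a library.

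Shares of cells were taken after thinning each cell to 5000 UMIs. Intervals of shares (95%, Wilson) cover counting error alone. Counts were summed per library and class and compared by the quasi-likelihood test of edgeR 4.0.16 under R 4.3.3 (glmQLFit and glmQLFTest after filterByExpr and TMM, two-sided, threshold 0.05 after Benjamini-Hochberg adjustment), without covariates and on the sums of the comparison only. The SE was taken from the fitted log2 difference and its F statistic. The 2 sums of a library share its pool of mice, and over genes their deviations from the group means correlated by 0.114 to 0.656 in the 30 pairs tested, so the library was fitted as a block in an alternative. The other alternatives were DESeq2 1.42.0, no filter on low counts, leaving out each library, doubled class thresholds, no doublet removal and thinned cells, and for levels the cell limits as worded in the supplement (500 to 8000 UMIs and at least 1000 genes), which passed 4432, 1549 and 9914 barcodes. After seeing the data, 3 comparisons (with ciliated-like, fibroblast-like and gland-like cells), library totals without TMM factors, the gland list taken before Scgb1a1, and thinning together with the block were added. The scripts were tested on simulated counts.

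The members and gene lists were chosen with earlier results of these data known. Genes named are the 7 members and Lrig1, the 2 genes of each pathway list with the highest CPM over epithelial classes, the genes most like each member (5 for Cyp2f2 and 2 for the others, with at least 10 CPM in a sum and class-setting markers left out), and the Cyp2 genes of the chromosome 7 run. Markers of the class checks are named beside them. The list of flavin monooxygenases is not reported here. Positions and promoter windows came from the GRCm39 genome and GENCODE annotation.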

Additional observations from a re-analysis of the deposited data

Results flagged for a closer look

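The difference in Cyp2a5 between Lrig1+ and Lrig1- cells had opposite signs in different classes. Without the library as a block none of the 3 differences passed the threshold in edgeR (adjusted p = 0.140 in Tmprss11a+ basal, 1 in Nkx2-1+ basal and 0.854 in the secretory cells), and with it the first passed alone (adjusted p = 0.00381, against 0.0926 and 0.0984). In Tmprss11a+ basal cells, Lrig1+ cells exceeded Lrig1- cells by a mean log2 difference of 1.93 (0.82 to 2.68 in the 3 libraries), and in Nkx2-1+ basal cells by 0.34 (0.11 to 0.53). In Scgb3a2-high and Scgb1a1-high cells combined, Lrig1+ cells were lower in each library, at 1010, 793 and 491 against 1287, 1832 and 563 CPM, a mean log2 difference of -0.59 (-1.21 to -0.20). With cells thinned to 5000 UMIs and split by the Lrig1 UMIs left, edgeR's fitted differences were 0.30 in Tmprss11a+ basal, 0.34 in Nkx2-1+ basal and -0.90 in the secretory cells (0.35, 0.33 and -0.72 with the library as a block). Many Lrig1+ cells had no Lrig1 UMI left after thinning, so these groups differ from the unthinned ones. Without thinning, the gap to the secretory cells was 2.51 for Tmprss11a+ basal and 0.923 for Nkx2-1+ basal cells. These entries stand here because every library had 1 sign in the basal class and the opposite sign in the secretory classes. The difference between the classes was not tested. The secretory values mix 2 classes that differ in both genes, since Scgb1a1-high cells have more Cyp2a5 and less Lrig1 than Scgb3a2-high cells, and Lrig1+ cells were deeper than Lrig1- cells in every class and library, at 17686 to 24846 against 10920 to 14389 UMIs per cell in the secretory cells. The part of either in the result was not tested. Scgb3a2-high cells alone were also split by Cyp2a5 at 5000 UMIs. An Lrig1 UMI was found in 16.25, 25 and 26.2% of those with 5 or more Cyp2a5 UMIs and 28.9, 27.2 and 29.8% of those without. In Tmprss11a+ basal cells these shares were 35.9, 40.9 and 47.4% against 33.5, 36.6 and 37.6%. Gland-like cells gave 21.5, 30.2 and 23.2% against 13.3, 12 and 16.2%. With a single group of 3 libraries, no library could be tested as standing apart from its group.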

How the results depend on the processing

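Of 325 alternatives of the member differences that passed the threshold, 303 kept their direction and side of the threshold, 22 kept the direction but lost the call, and none turned. In Scgb3a2-high against Nkx2-1+ basal cells 2 members were called, and 5 with the library as replicate block, 1 each without doublet removal, after thinning and without TMM factors, and 1 to 4 with a library left out. In Nkx2-1+ against Tmprss11a+ basal cells the 4 became 6 with the block and 1 to 5 with a library left out. In Scgb1a1-high against Scgb3a2-high cells the 5 became 3 with the gland list taken first, and in suprabasal cells the 2 became 4 with the block. For Lrig1 in Tmprss11a+ basal cells the 0 became 3 with the block, with DESeq2 and with thinning and the block together, 1 without the count filter, and 0 to 1 with a library left out. It became 1 with the block in Nkx2-1+ basal cells and 1 without the count filter in the secretory cells. The block changed no call in the ciliated-like, fibroblast-like and gland-like comparisons. Mean Cyp2f2 of all 11 epithelial classes stayed above every non-epithelial class under each alternative, and 68 of 616 alternative levels moved by over 1 SD, 39 of them with the cell limits as the study's supplement words them. Levels with a library left out count among the 616 but could never move that far, because the SD comes from the same libraries. They are thus no check here.

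Without TMM factors the split of called genes changed from 1114 higher and 836 lower to 755 and 1180 in Scgb3a2-high against Nkx2-1+ basal cells, from 1216 and 937 to 501 and 5296 in Scgb1a1-high and from 2102 and 1723 to 1256 and 5094 in gland-like against Scgb3a2-high cells, and from 1831 and 1691 to 944 and 2759 in suprabasal cells. In ciliated-like cells it was 5029 and 4962, then 4228 and 6019. Genes called ranged from 641 to 3619 in Scgb3a2-high against Nkx2-1+ basal cells, 789 to 5797 in Scgb1a1-high cells, 1075 to 5946 between the basal classes, 906 to 6407 in suprabasal and 2469 to 6350 in gland-like cells, with the highest under the block or without TMM factors. In the Lrig1 comparisons they ranged from 0 to 183, 1300 and 71.

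The direction turned in 15 of 728 alternatives, never of a called difference. Without TMM factors, Cyp2f2 gave -0.13 in Scgb1a1-high, -0.083 in gland-like and 0.066 in Lrig1+ secretory cells, Cyp2s1 -0.023 and Ephx1 -0.075 in suprabasal cells, and Cyp2s1 gave -0.064 there after thinning. For Lrig1 in Nkx2-1+ basal cells, Cyp2s1 gave 0.0015 without the filter, 0.014 without doublet removal and -0.13 to 0.11 with a library left out (0.018 without library 3), and Fmo2 gave -0.0037 without doublet removal and -0.026 to 0.046 with a library left out. Por gave -0.21 to 0.17 between the basal classes with a library left out and 0.40 in ciliated-like cells with doubled thresholds, where Cyp2b10 gave 0.035 for Lrig1 in Tmprss11a+ basal cells. The cause was not tested. Scgb1a1-high cells were 46 to 116 a library, which limits what their levels can show.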
